A study of Mus musculus with 24 samples.

Results

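Transforming growth factor beta (TGF-beta) signalling was followed through 10 genes, chosen by name for their place in the pathway: the ligands Tgfb1 and Tgfb2, the receptors Tgfbr1 and Tgfbr2, the signal carriers Smad2, Smad3 and Smad4, the inhibitory Smad7, and the co-repressors Ski and Skil. All 10 were listed among the 23871 genes of the PAPERCLIP tables and, by Ensembl identifier, among the 47069 of the RNA-seq tables. PAPERCLIP crosslinks mRNA to the poly(A)-binding protein and reads the 3′ end. In cTag-PAPERCLIP that protein carries a GFP tag (Ctag-PABP) that is expressed only after Cre recombination, so the mRNA of Cre-expressing cells can be pulled from whole tissue.

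Libraries of LPS-treated, PBS-treated and untreated brain came from Cx3cr1-Cre; Ctag-PABP mice, 3, 3 and 2 in number, in which Cx3cr1 drives Cre in microglia and related macrophages. Cortex gave 2 untreated libraries each of Gfap-Cre; Ctag-PABP, Camk2a-Cre; Ctag-PABP and Gad2-Cre; Ctag-PABP mice, in which the promoters mark astrocytes, excitatory neurons and inhibitory neurons. All tagged mice therefore carry both a Cre and the tag. The labels give these mice no age, and no dose or schedule for the LPS and PBS of the tagged mice. RNA-seq covered microglia of adult wild-type C57BL/6 mice after daily intraperitoneal injection of 1 mg/kg LPS, a bacterial cell wall component that triggers innate immunity, or of PBS, on 4 days, with 3 libraries each; 2 brains were pooled per tube and cells were taken with CD11b beads. CD11b is carried by other myeloid cells as well. Liver PAPERCLIP (1 library, CL57/B6J, with no Cre or tag named) and cortex of Ptbp2-KO embryos at E18.5 (3 libraries) entered no comparison.

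TGF-beta ligands are secreted in a latent form and, once released, bind a type II receptor, TGFBR2, which recruits and phosphorylates the type I receptor, TGFBR1. The active receptor phosphorylates SMAD2 and SMAD3, which join SMAD4 and enter the nucleus. SMAD7 blocks the receptor, SKI and SKIL (SnoN) hold SMAD complexes inactive, and both SMAD7 and SKIL are themselves induced by the signal. In the brain the pathway is best known for keeping microglia in their resting state, in which genes such as P2ry12, Tmem119 and Sall1 depend on it.

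The tagged brain libraries held 133456 to 2005627 counts, with the 2 untreated Cx3cr1 libraries the shallowest, and the microglial RNA-seq libraries 1250170 to 2133407. A summed list of 8 microglial markers made up 2.34 to 3.29% of the counts in Cx3cr1 libraries and at most 0.0108% in cortical ones, and 6 astrocyte markers made up 1.95 to 2.21% in Gfap libraries. The Gfap libraries also carried 6 oligodendrocyte markers at 0.102% in replicate 1 and 0.707% in replicate 2, against 0.0275 to 0.0349% in the neuronal lines, so Gfap replicate 2 stood apart. Among Cx3cr1 libraries untreated replicate 2 stood apart by 6 monocyte and border macrophage markers, at 0.223%, against 0.0705 to 0.0975% in the other 7. Replicate 3 of the PBS-treated Cx3cr1 group stood apart in carrying hepatocyte markers at 0.191% and pan-neuronal markers at 0.271%, against at most 0.0015% and 0.0526% in the other PBS libraries. Xist had no count in untreated Cx3cr1 and Gfap libraries but 60 and 72 counts in Camk2a and 29 and 18 in Gad2 libraries, and Ddx3y was present in all 8, so sex makeup and driver line cannot be told apart. Brain and cortex as source tissue likewise cannot be told apart from the driver in any comparison of Cx3cr1 with the cortical lines. Levels below are CPM, the share of a library's counts scaled to a common total and then by edgeR's TMM factors; log2 differences are given with their SE, and a gene is called changed at an adjusted p under 0.05.

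Microglia stood out by both receptors. In untreated Cx3cr1 libraries 6 of the 10 genes were higher than the mean of the 3 cortical lines and none was lower, with 9 tested; of all 9421 genes tested 49.8% were called, 21.8% as higher and 28% as lower. The median difference over the 9 genes was 1.28 on the log2 scale, beside -0.476 over all genes. Here and below, lines joined on 1 side of a comparison were averaged on the log2 scale. A fold against joined lines is therefore a fold over their geometric mean, not over the highest of them. Since bulk libraries were compared, fewer cells of a type and less RNA per cell cannot be told apart here or below.

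Tgfbr1, the type I receptor kinase, had 1961 and 2751 CPM in untreated Cx3cr1 libraries, against 9.99 and 9.08 CPM in Gfap, 7.17 and 5.45 CPM in Camk2a and 4.57 and 3.90 CPM in Gad2 libraries. Every microglial value was far above every cortical one. The difference from the 3 cortical lines was 8.53 ± 0.24 on the log2 scale, a 370.3-fold excess (adjusted p = 5.23e-15). The cortical Tgfbr1 values rested on 3 to 15 counts per library. The summed microglial markers had a share of 0.00339 to 0.0108% in these libraries. Of the 8 markers, 5 and 4 were at 0 in Gfap, 3 and 2 in Camk2a and 1 and 1 in Gad2 libraries. The part of these markers in the Tgfbr1 counts was not tested. Between cortical lines no difference in Tgfbr1 was called (Gfap against both neuronal lines 0.86 ± 0.46, adjusted p = 0.116; Camk2a against Gad2 0.59 ± 0.60, adjusted p = 0.551).

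Tgfbr2, the ligand-binding type II receptor, had 1152 and 807 CPM in untreated Cx3cr1 libraries, against 21.4 and 14.5 CPM in Gfap, 6.21 and 3.96 CPM in Camk2a and 108 and 101 CPM in Gad2 libraries. The order of the lines was therefore Cx3cr1, Gad2, Gfap, Camk2a, with no overlap between neighbours. Against the 3 cortical lines Tgfbr2 was higher by 5.55 ± 0.22 on the log2 scale, 46.8-fold (adjusted p = 1.97e-13). It also separated the neurons: Camk2a libraries were 20.03-fold lower than Gad2 libraries (log2 difference -4.32 ± 0.35, adjusted p = 3.7e-08), a call kept in all 16 alternatives tried.

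The start regions of the receptor genes and of Tgfb2 are shown because these 3 genes had the largest called differences between lines among the members: the receptors were high and Tgfb2 without a count in the same libraries. They are windows of 300 bases around an annotated start in RefSeq's GRCm38.p6 table, the assembly of the mm10 build, which held 6 of the 10 genes. Tgfbr1 runs on the plus strand (window chr4:47352972-47353271), Tgfbr2 on the minus strand (chr9:116175314-116175613) and Tgfb2 on the minus strand (chr1:186705940-186706239, a start inside the outer bounds of the annotated gene). Capitals mark CAGACA, a short element bound by SMAD3 and SMAD4.
Tgfbr1: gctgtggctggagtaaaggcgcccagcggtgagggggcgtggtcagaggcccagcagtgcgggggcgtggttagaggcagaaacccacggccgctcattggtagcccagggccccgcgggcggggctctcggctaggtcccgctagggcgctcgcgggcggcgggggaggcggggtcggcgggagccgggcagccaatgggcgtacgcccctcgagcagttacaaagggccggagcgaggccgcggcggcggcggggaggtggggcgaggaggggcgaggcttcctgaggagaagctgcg
Tgfbr2: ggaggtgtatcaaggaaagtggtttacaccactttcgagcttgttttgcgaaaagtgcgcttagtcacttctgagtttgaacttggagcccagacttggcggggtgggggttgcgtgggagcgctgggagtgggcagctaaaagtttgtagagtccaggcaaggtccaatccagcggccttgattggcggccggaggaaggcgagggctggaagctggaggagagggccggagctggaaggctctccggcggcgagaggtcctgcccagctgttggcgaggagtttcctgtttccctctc
Tgfb2: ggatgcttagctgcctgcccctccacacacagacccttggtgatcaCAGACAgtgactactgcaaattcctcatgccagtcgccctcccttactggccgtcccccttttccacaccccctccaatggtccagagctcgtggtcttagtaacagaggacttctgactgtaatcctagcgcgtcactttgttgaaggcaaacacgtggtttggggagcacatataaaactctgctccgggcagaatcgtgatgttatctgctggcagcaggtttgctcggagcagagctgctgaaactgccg
CAGACA, searched on both strands, occurred once in the Tgfb2 window and once in the window of a second Tgfbr1 start (chr4:47385966-47386265), and in 21% of all 32851 promoters of this length. The palindrome GTCTAGAC (0.213% of all promoters) and the ETS-type sequence GAGGAAGT (3.2%) were in none of the members' windows, nor did any match overlap another motif. GC made up 74.7% of the Tgfbr1 window, 59% of the Tgfbr2 window and 54.3% of the Tgfb2 window, beside a median of 52.7% over all promoters.

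Of the ligands, Tgfb2 was highest in the Gfap line. It had 64.2 and 61.1 CPM in Gfap libraries, against 0.956 and 1.49 CPM in Camk2a and 6.09 and 5.86 CPM in Gad2 libraries, and no count in either untreated Cx3cr1 library. Gfap libraries thus held the highest level, Gad2 libraries the next and Camk2a libraries a lower one, without overlap. The neuronal values rest on few counts, 4 and 6 in Gad2 and 2 and 3 in Camk2a libraries. Gfap exceeded the neuronal lines 22.0-fold (log2 difference 4.46 ± 0.34, adjusted p = 2.41e-09), and Camk2a lay 4.54-fold below Gad2 (log2 difference -2.18 ± 0.72, adjusted p = 0.0371). The Camk2a difference missed the threshold with a filter at 5 CPM and when any of the Camk2a, Gad2 or Gfap libraries was left out, with adjusted p up to 0.206.

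No count of Tgfb2 was seen in any of the 8 Cx3cr1 libraries, 3737086 counts in all, which allows a level of up to 0.803 CPM before scaling. For the untreated pair alone the limit is 10.8 normalised CPM, so Tgfb2 lay at least 5.82-fold below its level in Gfap libraries (adjusted p = 0.000175). Against the mean of the 3 cortical lines the same gene missed the threshold, with an adjusted p of 0.0879.

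Tgfb1, the ligand that microglia are known to make for their own upkeep, was close to undetected by PAPERCLIP. Its counts were 12, 8 and 4 in LPS-treated Cx3cr1 libraries, 4, 4 and 0 in PBS-treated ones, and 1 and 0 in untreated ones. These groups differ in depth, with 679115 to 1041245, 266330 to 337770 and 133456 to 154959 counts per library. Scaled for depth, Tgfb1 averaged 9.24 CPM in LPS-treated, 9.83 CPM in PBS-treated and 3.50 CPM in untreated libraries. The 6 cortical libraries held none in 7970440 counts, which allows up to 0.376 CPM. It passed the filter on low counts in no PAPERCLIP comparison and so has no test there; RNA-seq of microglia did measure it, as given below.

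**Figure D1:**
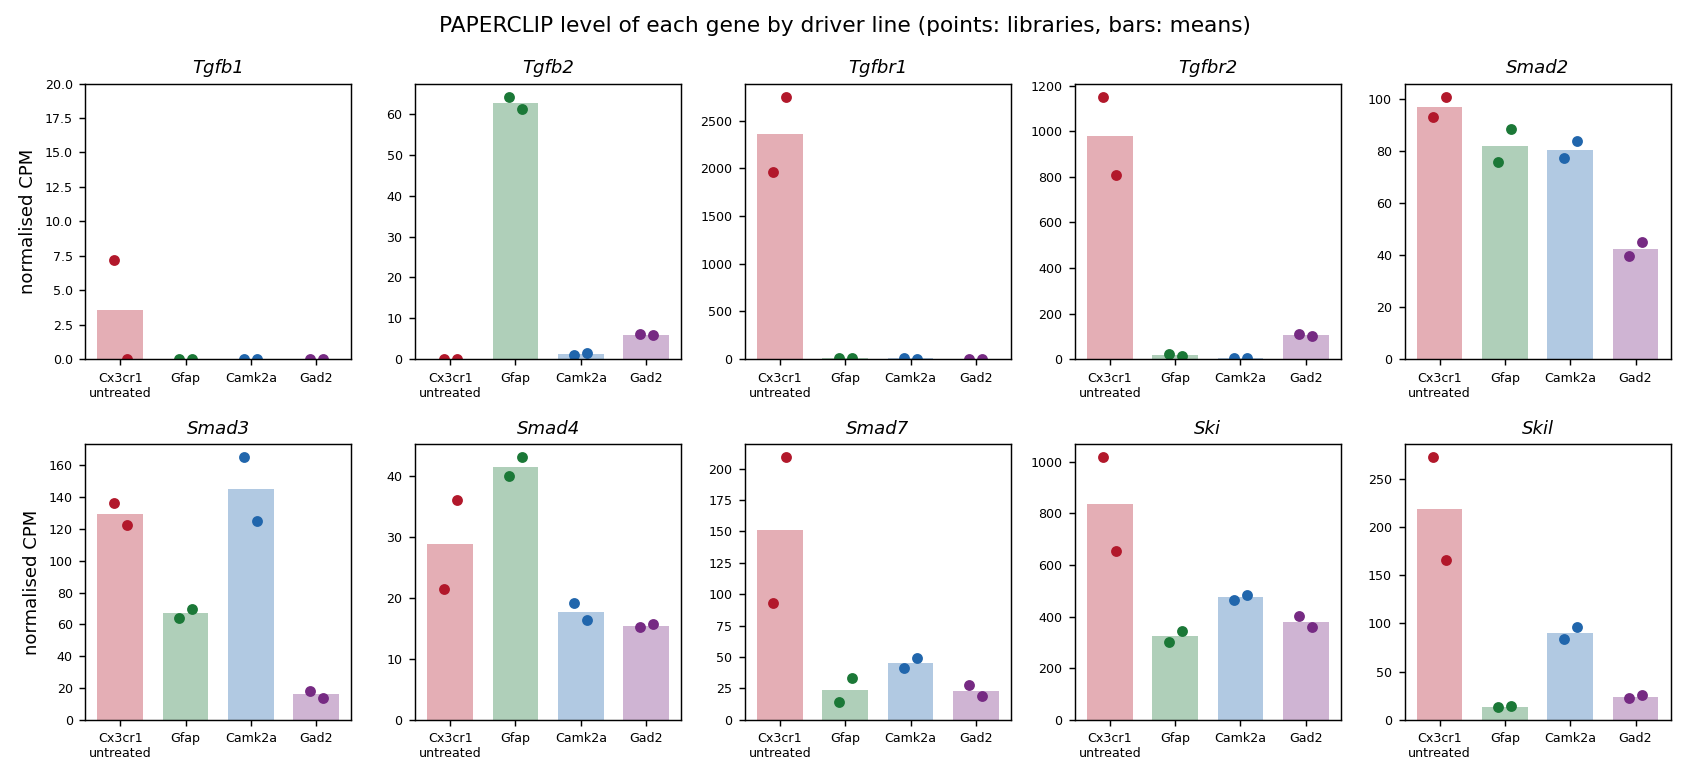
Normalised CPM of each of the 10 genes in untreated tagged libraries of the Cx3cr1, Gfap, Camk2a and Gad2 lines (points: the 2 libraries of a line; bars: their mean; each vertical axis starts at 0 and has its own range). Tgfbr1 and Tgfbr2 are highest in Cx3cr1 libraries, Tgfb2 in Gfap libraries, and Smad3 is low in Gad2 libraries alone, at 18.3 and 13.7 CPM.

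Smad2 and Smad3, the receptor-activated Smads among the members, were lowest in inhibitory neurons. This did not extend to Smads outside the members. Smad5 (log2 difference -2.22 ± 0.38, adjusted p = 0.000262) and Smad9 (-1.13 ± 0.32, adjusted p = 0.0146) were lower in Camk2a than in Gad2 libraries. Smad1 was not called there (-0.15 ± 0.37, adjusted p = 0.824). Smad3 had 165 and 125 CPM in Camk2a libraries, against 18.3 and 13.7 CPM in Gad2 libraries, a 9.25-fold difference (log2 3.21 ± 0.30, adjusted p = 2.31e-07) that held in all 16 alternatives. The untreated Cx3cr1 libraries, at 136 and 122 CPM, overlapped the Camk2a values, while the Gfap libraries, at 64.2 and 69.6 CPM, lay between. Smad3 was called higher in Cx3cr1 than in the 3 cortical lines averaged on the log2 scale (1.28 ± 0.31, adjusted p = 0.00203). It was also called higher than in Gfap (0.95 ± 0.33, adjusted p = 0.0258), a call lost in 9 of 16 alternatives, with adjusted p up to 0.193.

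Smad2, the other receptor substrate, kept a narrower range. Its levels were 93.0 and 101 CPM in untreated Cx3cr1, 75.7 and 88.4 CPM in Gfap, 77.4 and 83.7 CPM in Camk2a and 39.6 and 44.9 CPM in Gad2 libraries. Gad2 libraries were the low ones and the other 3 lines lay close together. Camk2a exceeded Gad2 by 0.92 ± 0.25 on the log2 scale (adjusted p = 0.0107), a call lost in 5 of 16 alternatives, among them the removal of any Camk2a or Gad2 library (adjusted p up to 0.277). The excess of Gfap over both neuronal lines, 0.50 ± 0.20 with overlapping values (adjusted p = 0.0389), was lost in 13 of 16 alternatives.

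Smad4, the partner shared by all receptor-activated Smads, was higher in the Gfap line than in the neuronal lines. Its level was 40.0 and 43.0 CPM in Gfap libraries, against 19.1 and 16.3 CPM in Camk2a and 15.2 and 15.6 CPM in Gad2 libraries, with 21.5 and 36.0 CPM in untreated Cx3cr1 libraries. Gfap lay 2.52-fold above the neuronal lines (log2 difference 1.33 ± 0.27, adjusted p = 0.000253), while Camk2a and Gad2 did not differ beyond the spread between libraries (0.20 ± 0.36, adjusted p = 0.759). The Cx3cr1 values, which rest on 3 and 5 counts, were neither called different from Gfap (-0.53 ± 0.51, adjusted p = 0.42) nor from the 3 cortical lines (0.36 ± 0.53, adjusted p = 0.602).

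The inhibitors were, like the receptors, highest in microglia. Smad7, which shuts the receptor down, had 93.0 and 209 CPM in untreated Cx3cr1 libraries, against 14.3 and 33.3 CPM in Gfap, 41.6 and 49.5 CPM in Camk2a and 27.4 and 18.54 CPM in Gad2 libraries. The microglial values were apart from all others but far from each other, and the excess over the 3 cortical lines was 2.34 ± 0.39 on the log2 scale (adjusted p = 5.48e-05). Ski had 1016 and 655 CPM in untreated Cx3cr1 libraries and 303 to 484 CPM in the 6 cortical ones, a log2 difference of 1.12 ± 0.22 (adjusted p = 0.000312).

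Skil, a close relative of Ski, took a separate range in every line. It had 272 and 166 CPM in untreated Cx3cr1, 12.8 and 14.5 CPM in Gfap, 84.1 and 96.0 CPM in Camk2a and 22.8 and 25.4 CPM in Gad2 libraries, with no overlap between neighbours in the order Cx3cr1, Camk2a, Gad2, Gfap. Cx3cr1 lay 7.01-fold above the geometric mean of the cortical lines (log2 difference 2.81 ± 0.28, adjusted p = 1.26e-07) and 15.6-fold above Gfap (3.97 ± 0.36, adjusted p = 3.77e-08). Camk2a exceeded Gad2 3.70-fold (1.89 ± 0.29, adjusted p = 7.11e-05), and Gfap fell 3.33-fold below the neuronal lines (-1.73 ± 0.31, adjusted p = 7.22e-05). Gfap libraries thus had the lowest Skil and the highest Tgfb2 level among the 4 lines, together with a Smad4 level above both neuronal lines. Without Gfap replicate 2, the library rich in oligodendrocyte markers, the differences from the neuronal lines were 4.50 for Tgfb2 (adjusted p = 1.22e-06), 1.28 for Smad4 (adjusted p = 0.0141) and -1.84 for Skil (adjusted p = 0.00495), while Smad2 was no longer called (0.38, adjusted p = 0.313); the part of these markers in the values with replicate 2 was not tested. Without untreated Cx3cr1 replicate 2 the 6 members higher in microglia than in the cortical lines stayed called, Smad7 with 1.58 in place of 2.34 (adjusted p = 0.0304).

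By count, Gfap against both neuronal lines gave 3 higher members (Tgfb2, Smad4, Smad2) and 1 lower (Skil) of 9 tested, where 60.5% of all genes were called, 31.3% as higher, so this share is no more than that of the whole table. Camk2a against Gad2 gave 3 higher (Smad3, Skil, Smad2) and 2 lower (Tgfbr2, Tgfb2) of 9, beside 21.2% of all genes, 9.6% as lower. Untreated Cx3cr1 against Gfap gave 6 higher (Tgfbr1, Tgfbr2, Skil, Smad7, Ski, Smad3) and 1 lower (Tgfb2) of 9, beside 44.6%. Smad3 lost this call without Gfap replicate 2 (0.85, adjusted p = 0.108) and without untreated Cx3cr1 replicate 2 (0.96, adjusted p = 0.0767). Among members that missed the threshold, Smad7 in Camk2a against Gad2 (1.03 ± 0.38, adjusted p = 0.0643) was called in 4 of 16 alternatives, 2 of them the removal of 1 untreated Cx3cr1 library. Ski in Gfap against neurons (-0.39 ± 0.23, adjusted p = 0.151) was called in 3 and Smad3 there (0.50 ± 0.24, adjusted p = 0.0799) in 1, the removal of untreated Cx3cr1 replicate 1 (adjusted p = 0.0446). The 4 cell type comparisons share libraries and are not separate evidence of each other.

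Other genes of the pathway were listed by role. Their counts stand beside 21.8% higher and 28% lower of all 9421 genes tested in untreated Cx3cr1 against the cortical lines. Among 12 further receptors, 7 were tested and 1 was higher in untreated Cx3cr1 than in the cortical lines: Eng, a co-receptor known from endothelium, with 85.9 and 36.0 CPM in Cx3cr1 libraries and at most 3.05 CPM in cortical ones (5.33 ± 0.72, adjusted p = 5.85e-06). All 5 endothelial markers had no count in one of these Cx3cr1 libraries and 4 of 5 had none in the other. Of 20 ligands and latency factors 7 were tested, 2 were higher and 1 lower; the higher ones were Nrros, which holds latent TGF-beta1 on microglia, with 50.1 and 57.6 CPM in Cx3cr1 and at most 8.56 CPM in cortical libraries (4.29 ± 0.68, adjusted p = 3.43e-05), and Furin, the protease that cuts the TGF-beta precursor (1.56 ± 0.32, adjusted p = 0.00047).

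Of 17 other Smads and regulators 13 were tested, 3 were higher and 3 lower in untreated Cx3cr1, beside 49.8% of all genes called. Pmepa1, a feedback inhibitor induced by the signal, had 408 and 309.7 CPM in Cx3cr1 libraries and 19.4 to 118 CPM in the cortical ones (3.07 ± 0.25, adjusted p = 9.47e-09). Tgif1, a co-repressor of SMAD2, had 93.0 and 108 CPM in Cx3cr1, 19.98 and 16.3 CPM in Gfap libraries and no count in the neuronal ones. Of 9 genes listed as induced by TGF-beta in various cells 8 were tested, 2 were higher, Tgfbi among them, and 3 lower (Id2, Ccn2 and Id3). All 7 microglial genes known to depend on TGF-beta were higher, by 5.57 to 11.5 on the log2 scale. Since the list was made of microglial genes, its choice fixed this direction, which says nothing of TGF-beta. Of the 7, P2ry12 and Tmem119 are also among the 8 microglial markers.

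The same lists were compared among the cortical lines. In Gfap against both neuronal lines 31.3% of all 9421 genes were called higher and 29.3% lower. In Camk2a against Gad2 11.6% were called higher and 9.6% lower, and in untreated Cx3cr1 against Gfap 17.6% and 27%. Against both neuronal lines, Gfap libraries had 2 higher and 2 lower of 7 other receptors tested, and Bmpr1b, a type I BMP receptor, led with 201 and 198 CPM in Gfap, 6.69 and 1.98 CPM in Camk2a and no count in Gad2 libraries. Of the induced genes 5 were higher and 1 lower of 8 tested, led by Id3, a BMP- and TGF-beta-responsive inhibitor of differentiation, with 325 and 444 CPM in Gfap libraries and 1.49 to 8.78 CPM in neuronal ones (6.65 ± 0.28, adjusted p = 8.89e-13). Ligands and latency factors had 4 higher and none lower of 7 tested, among them Ltbp1, which tethers latent TGF-beta to the matrix (5.48 ± 0.47, adjusted p = 1.4e-08). Other Smads and regulators had 6 higher and 3 lower of 13. Between neurons, Camk2a against Gad2 gave 3 higher and none lower of 7 receptors, led by Acvr1c (4.12 ± 0.45, adjusted p = 2.14e-06), 1 higher and 2 lower of 7 ligands and latency factors, 2 higher and 2 lower of 13 regulators, and 2 higher and none lower of 8 induced genes. Of the 7 microglial genes, 2 were higher in Gfap than in neuronal libraries and 3 were lower in Camk2a than in Gad2 libraries; P2ry12, which is in both counts, had 17.1 and 15.1 CPM in Gfap, 0.478 and 1.49 CPM in Camk2a and 4.57 and 9.76 CPM in Gad2 libraries. Untreated Cx3cr1 against Gfap gave 2 higher and 4 lower of 7 ligands and latency factors and 1 higher and 2 lower of 7 receptors. It gave 2 higher and 3 lower of 13 regulators and 2 higher and 4 lower of 8 induced genes. All 7 microglial genes were higher, a direction again fixed by the choice of list.

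Tgfbr1 and Tgfb2 were set beside all 8604 genes of at least 10 CPM on average, by Pearson correlation of log2(CPM + 1) over the 14 tagged brain libraries. The genes most like Tgfbr1 were Siglech (r = 0.995), Ecscr (0.994), Slc7a7 (0.994), Picalm (0.994) and Fgd2 (0.993). Those most like Tgfb2 were Rapgef3 (0.997), Fgfr2 (0.986), Fam213a (0.985), Nr2e1 (0.978) and Hopx (0.978). These points share libraries, depth and driver lines, and the values describe the pattern only.

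PBS treatment was compared with no treatment, since untreated brains are the baseline of the cell type comparisons. A single member, Tgfbr1, changed of 8 tested; 2.01% of all 5112 genes tested were called, 0.548% as higher and 1.47% as lower. Tgfbr1 had 898, 1222 and 664 CPM in PBS-treated Cx3cr1 libraries, against 1919.6 and 2845 CPM in untreated ones. Each PBS value was below both untreated values, and the difference was -1.36 ± 0.32 on the log2 scale, 2.56-fold lower (adjusted p = 0.0481). This call sat at the threshold: it was lost in 9 of 16 alternatives (adjusted p 0.00402 to 0.285), among them the removal of any 1 PBS or LPS library or of untreated replicate 2 (-1.03, adjusted p = 0.285). Among the 8 Cx3cr1 libraries that one has the highest Tgfbr1 value and a share of 0.223% for the 6 monocyte and border macrophage markers, against 0.0781% in untreated replicate 1 and 0.0705 to 0.0882% in PBS-treated libraries; none of the 6 markers was at 0 in any of these 5 libraries, and their part in the difference was not tested.

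Tgfbr2 was not called in this comparison. It had 1143, 1218 and 949.7 CPM in PBS-treated and 1128 and 834 CPM in untreated libraries, with overlapping values (0.18 ± 0.25, adjusted p = 0.734). Smad7 had 92.3, 68.7 and 54.4 CPM in PBS-treated and 91.1 and 216 CPM in untreated libraries (-1.09 ± 0.40, adjusted p = 0.155); it was called without untreated replicate 1 (-1.51, adjusted p = 0.0373) and was -0.33 without untreated replicate 2. The other 5 tested members differed by -0.08 to 0.41 on the log2 scale, none of them called (adjusted p 0.641 to 0.965). In each of the 5 lists of other pathway genes none was called, and the summed microglial markers had 2.75 to 3.08% of the counts in PBS-treated and 3.09 to 3.29% in untreated libraries.

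LPS was set against PBS in both assays. In tagged microglia none of 8 members tested passed the threshold in edgeR or in DESeq2, with 2 at an unadjusted p under 0.05 (Tgfbr1 and Ski); 3.53% of all 5692 genes tested were called, 2.74% as higher and 0.791% as lower. In isolated microglia 4 members fell and 1 rose of 10 tested, where 26.4% of all 10267 genes were called, 10.4% as lower and 15.9% as higher. The CD11b-selected libraries also differed in markers of other blood cells. The 5 lymphocyte markers summed to 0.00136 to 0.00262% after LPS and 5.71e-05 to 0.000718% after PBS. Of these 5, 1 was at 0 in each LPS library, and 3, 3 and 4 were at 0 in the PBS libraries. The 4 neutrophil markers, none at 0, summed to 0.061 to 0.0754% after LPS and to 0.0214, 0.0103 and 0.104% after PBS. The part of either list in the differences below was not tested. The members that fell in RNA-seq were Tgfb2, Tgfbr1, Smad3 and Ski, and the one that rose was Skil. The median difference of the members was -0.27 in RNA-seq and -0.28 in PAPERCLIP on the log2 scale, beside -0.0164 and -0.00923 over all genes.

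Tgfbr1 had 1649.7, 1281 and 1973 CPM in LPS and 3217, 2995 and 2847 CPM in PBS microglia by RNA-seq. Every LPS value was below every PBS value. The fall was 1.85-fold (log2 difference -0.89 ± 0.14, adjusted p = 0.000717) and stayed past the threshold in all 14 alternatives, from -1.09 without replicate 3 of both groups to -0.74 without LPS replicate 2. Replicate 3 of each group was the one with Ddx3y (154 counts in LPS, 281 in PBS) and only 2 counts of Xist. In PAPERCLIP Tgfbr1 had 489, 839 and 544 CPM in LPS-treated and 898, 1222 and 664 CPM in PBS-treated libraries. The ranges overlap, but within each replicate number the LPS value was the lower one. Without pairing the difference was -0.585 ± 0.25 (adjusted p = 0.28). With the replicate number as a block, a pairing chosen from these same data, it passed the threshold (adjusted p = 0.0261). Without replicate 3 of the PBS group, the library with hepatocyte and neuronal markers, the unpaired difference was -0.77 (adjusted p = 0.199), and the difference of PBS from untreated -1.19 (adjusted p = 0.14).

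Tgfbr2 was called in neither assay. It had 825, 733 and 878 CPM in LPS and 844, 805 and 889 CPM in PBS microglia by RNA-seq, and 1080.3, 965 and 1121 CPM in LPS-treated and 1143, 1218 and 949.7 CPM in PBS-treated libraries by PAPERCLIP. Both sets overlap (RNA-seq -0.06 ± 0.10, adjusted p = 0.684; PAPERCLIP -0.08 ± 0.18, adjusted p = 0.883).

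**Figure D2:**
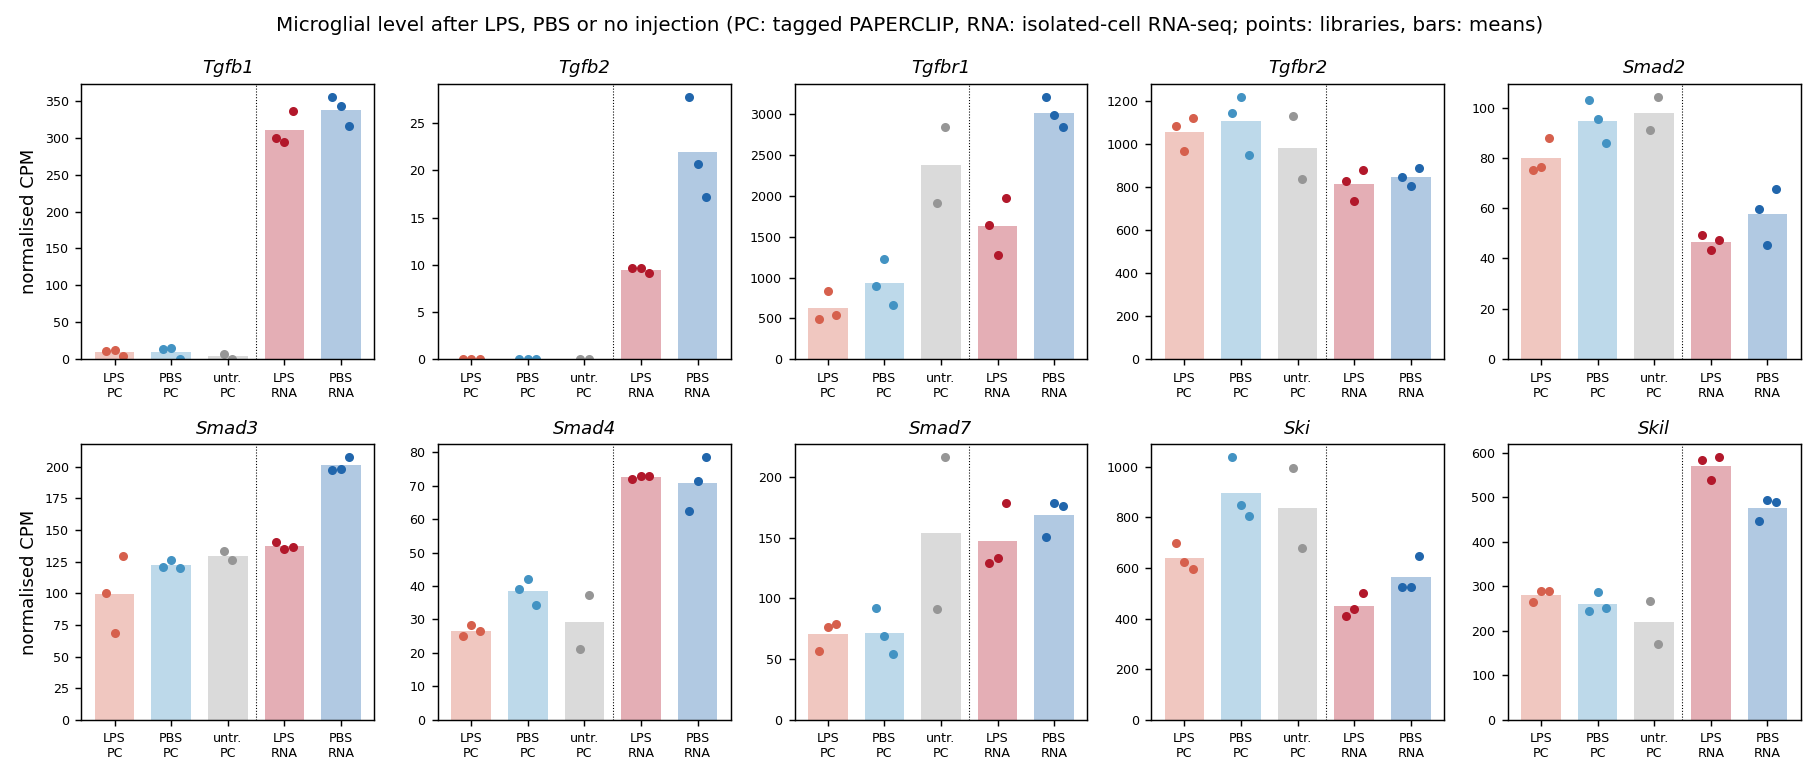
Normalised CPM of each of the 10 genes in LPS-treated, PBS-treated and untreated tagged microglia (PC, PAPERCLIP) and in LPS and PBS isolated microglia (RNA, RNA-seq); points are libraries, bars are means, each vertical axis starts at 0, and the assays are scaled separately. Tgfbr1 by RNA-seq lies at 1281 to 1973 CPM after LPS and 2847 to 3217 CPM after PBS, while Tgfbr2 overlaps between treatments in both assays.

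Of the ligands, Tgfb1 had 299.6, 295 and 336 CPM in LPS and 356, 344 and 315 CPM in PBS microglia by RNA-seq. The groups overlap through replicate 3 and the difference was not called (-0.13 ± 0.09, adjusted p = 0.314). It passed the threshold in 1 of 14 alternatives, without replicate 3 of both groups (-0.24, adjusted p = 0.048). Tgfb2 was a low gene in these cells, with 14, 20 and 11 counts in LPS and 57, 27 and 32 counts in PBS libraries. In CPM this was 9.62, 9.64 and 9.11 after LPS and 27.8, 20.7 and 17.2 after PBS, without overlap, and a 2.32-fold fall (log2 difference -1.21 ± 0.26, adjusted p = 0.00494).

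Tgfb2 was without a count in all Cx3cr1 PAPERCLIP libraries and highest in the Gfap line. In the RNA-seq libraries all 6 astrocyte markers were present, with a summed share of 0.0115 to 0.022% after LPS and 0.0205 to 0.0255% after PBS, and all 5 endothelial markers, with 0.019 to 0.0406% after LPS and 0.0357 to 0.0808% after PBS. The 6 hepatocyte markers summed to 0.145 to 0.186% after LPS and to 0.769, 0.715 and 0.175% after PBS. In each library 3 or 4 of these 6 markers were at 0: Apoa1, Serpina1a and Fgb in all, and Alb as well in PBS replicate 1 and LPS replicate 3. The sums therefore rest on Alb, Apob and Ttr alone. The part of any of these lists in the Tgfb2 difference was not tested.

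Among the Smads, Smad3 fell after LPS. By RNA-seq it had 140.2, 135 and 137 CPM in LPS and 198, 199 and 207 CPM in PBS microglia. The 2 groups were tight and apart, with a 1.47-fold fall (log2 difference -0.55 ± 0.08, adjusted p = 0.000482) that held in all 14 alternatives. By PAPERCLIP the LPS-treated libraries spread over 100.1, 68.8 and 129.5 CPM and the PBS-treated ones over 121, 126 and 120.1 CPM, and no difference was called (-0.30 ± 0.25, adjusted p = 0.618).

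Smad2 and Smad4 were called in neither assay. Smad2 had 49.5, 43.4 and 47.2 CPM in LPS and 59.5, 45.2 and 67.7 CPM in PBS microglia by RNA-seq (-0.33 ± 0.16, adjusted p = 0.157), and its PAPERCLIP difference was -0.26 ± 0.22 (adjusted p = 0.634). Smad4 had 72.1, 72.8 and 72.9 CPM in LPS and 62.4, 71.3 and 78.4 CPM in PBS microglia by RNA-seq (0.04 ± 0.12, adjusted p = 0.851). In PAPERCLIP the Smad4 values did not overlap, at 25.0, 28.4 and 26.6 CPM after LPS and 39.1, 42.0 and 34.3 CPM after PBS, yet the difference of -0.54 ± 0.31 missed the threshold (adjusted p = 0.422).

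The inhibitors divided. Ski values lay lower after LPS in both assays without overlap: by RNA-seq it had 412, 437 and 500.1 CPM in LPS and 524, 524 and 646 CPM in PBS microglia, and by PAPERCLIP 700.1, 622 and 596 CPM in LPS-treated and 1037, 848 and 804 CPM in PBS-treated libraries. The RNA-seq difference, -0.33 ± 0.11, passed the threshold (adjusted p = 0.0437) but was lost in 5 of 14 alternatives, without any 1 PBS library or LPS replicate 1 or 2 (adjusted p up to 0.207). The PAPERCLIP difference, -0.50 ± 0.18, did not pass it (adjusted p = 0.172, and 0.0502 with the replicate block).

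Skil rose slightly in RNA-seq, with 585, 539.7 and 589.5 CPM in LPS and 447, 495 and 489.9 CPM in PBS microglia. The groups do not overlap, and the 1.20-fold rise (log2 difference 0.26 ± 0.09, adjusted p = 0.0469) was lost in 10 of 14 alternatives, among them the removal of any 1 PBS library or of LPS replicate 1 or 3 (adjusted p up to 0.261). In PAPERCLIP it had 264, 290.3 and 289 CPM in LPS-treated and 245, 286 and 252 CPM in PBS-treated libraries, with overlap (0.09 ± 0.18, adjusted p = 0.857). Smad7, the other feedback inhibitor, had 129, 133 and 179 CPM in LPS and 151, 179 and 176 CPM in PBS microglia by RNA-seq (-0.21 ± 0.13, adjusted p = 0.269). It passed the threshold in 2 of 14 alternatives, without LPS replicate 3 (-0.34, adjusted p = 0.0324) and without replicate 3 of both groups. Its PAPERCLIP difference was -0.04 ± 0.27 (adjusted p = 0.964).

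**Figure D3:**
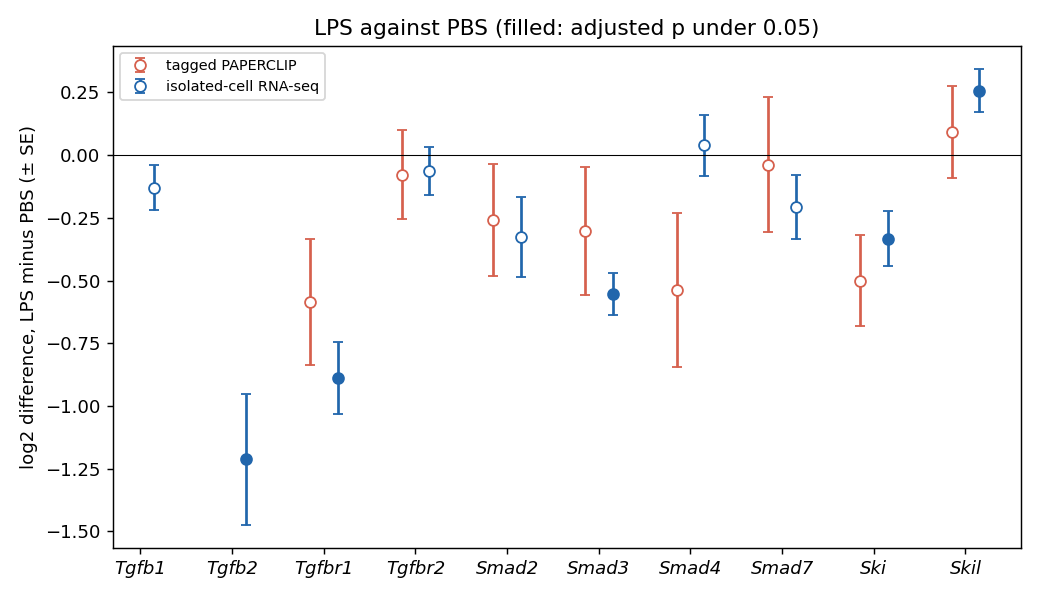
Log2 difference of LPS minus PBS for each of the 10 genes in tagged PAPERCLIP and in isolated-cell RNA-seq, with bars of 1 SE; filled points passed an adjusted p of 0.05. Filled points are Tgfb2, Tgfbr1, Smad3 and Ski below 0 and Skil above 0, all in RNA-seq; Tgfb1 and Tgfb2 have no PAPERCLIP point because neither was tested there.

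Whether the LPS response itself differed between the assays was tested as an interaction over the 12 libraries. For none of the 10 members was a difference called by edgeR or DESeq2, nor was any at an unadjusted p under 0.05; 0.00983% of all 10170 genes were called, which is 1 gene. For Tgfbr1 the RNA-seq response minus the PAPERCLIP response was -0.37 ± 0.31 (adjusted p = 0.813), for Smad3 -0.33 ± 0.24 (adjusted p = 0.776) and for Smad4 0.51 ± 0.28 (adjusted p = 0.677). For Tgfb2, with no PAPERCLIP count, the value is not determined. A call in RNA-seq and none in PAPERCLIP is therefore not a shown difference between the assays, whose depth also differs.

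Because Tgfbr1 fell while Tgfbr2 was not called, the ratio of their counts was taken within each library, a choice made after their values were seen; it needs no scaling between libraries, and a ratio of counts says nothing of which receptor is more abundant. By RNA-seq there were 0.5, 0.572 and 0.445 Tgfbr2 counts per Tgfbr1 count in LPS and 0.262, 0.269 and 0.312 in PBS microglia. The groups do not overlap, the ratio of their geometric means was 1.79, and an exact two-sided permutation test gave p = 0.1, the smallest that 3 against 3 allows.

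By PAPERCLIP the ratio was 2.21, 1.15 and 2.06 in LPS-treated, 1.27, 0.997 and 1.43 in PBS-treated and 0.588 and 0.293 in untreated libraries. LPS and PBS overlap (1.42-fold, exact two-sided permutation p = 0.3, unpaired), but within each of the 3 replicate numbers the LPS ratio was the higher one (exact two-sided sign-flip permutation p = 0.25 over the pairs, the smallest that 3 pairs allow). PBS lay above both untreated values (2.94-fold, exact two-sided permutation p = 0.1, the smallest possible for 3 against 2). The lower untreated ratio, 0.293, is that of replicate 2, the library that stood apart by monocyte and border macrophage markers. Without that library the Tgfbr1 difference of PBS from untreated was -1.03 in place of -1.36 on the log2 scale. The part of these markers in the ratio was not tested. Outside microglia the ratio was 2.14 and 1.6 in Gfap, 0.867 and 0.727 in Camk2a and 23.7 and 26 in Gad2 libraries, on 3 to 15 Tgfbr1 counts each.

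**Figure D4:**
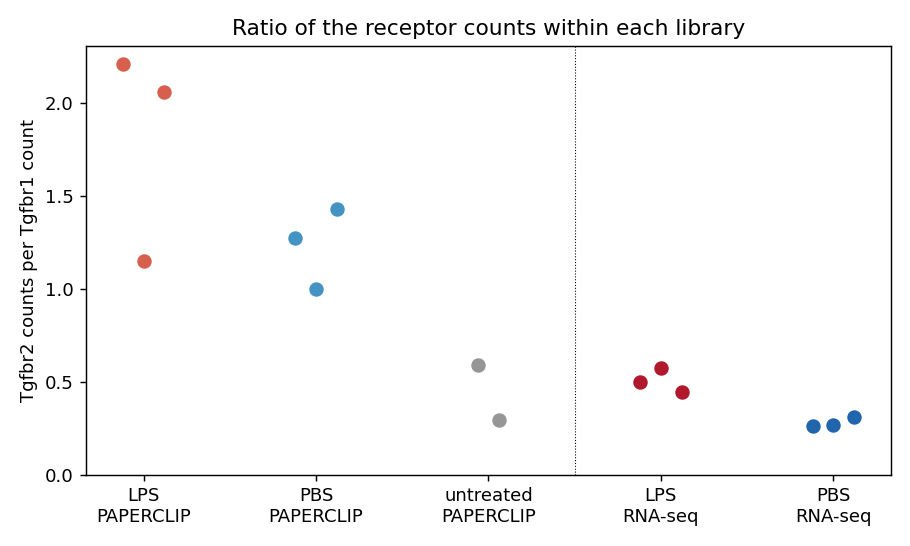
Tgfbr2 counts per Tgfbr1 count in each microglial library (vertical axis from 0; each point is 1 library), by treatment and assay. In RNA-seq the 3 LPS libraries lie at 0.445 to 0.572 and the 3 PBS libraries at 0.262 to 0.312; in PAPERCLIP both untreated libraries lie below the PBS-treated ones.

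Downstream, all 7 microglial genes known to depend on TGF-beta fell after LPS in RNA-seq, beside 10.4% of all genes. The list was chosen with earlier results of these data known, so this count only describes these genes. P2ry12, a purine receptor of resting microglia, had 1560.3, 1090.0 and 2024 CPM in LPS and 4968, 4321 and 4069 CPM in PBS microglia (-1.52 ± 0.19, adjusted p = 0.000102). Tmem119 (-0.85 ± 0.11, adjusted p = 0.000136) and Gpr34 (-1.11 ± 0.16, adjusted p = 0.000279) fell as well. In PAPERCLIP 2 of the 7 fell, beside 0.791% of all genes tested. P2ry12 had 2506, 2429 and 2764 CPM in LPS-treated and 5205, 4689.9 and 4494 CPM in PBS-treated libraries (-0.92 ± 0.17, adjusted p = 0.00733). The fall of Gpr34 was 0.71 ± 0.18 on the log2 scale (adjusted p = 0.0434). The microglial marker list, which shares P2ry12 and Tmem119 with these genes, summed to 2.34 to 2.83% of RNA-seq counts after LPS and 3.43 to 3.44% after PBS, and to 2.34 to 2.64% and 2.75 to 3.08% of PAPERCLIP counts. Its part in the falls of Tgfbr1, Smad3 and these genes was not tested.

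Genes listed as induced by TGF-beta in various cells did not move one way, and their response to TGF-beta in microglia was not tested. Of 9, 7 were tested in RNA-seq, 4 rose and 2 fell, beside 15.9% and 10.4% of all genes tested. Id2, an inhibitor of DNA binding, had 183, 179.7 and 159 CPM in LPS and 68.8, 63.6 and 53.2 CPM in PBS microglia (1.49 ± 0.12, adjusted p = 4.57e-06). Tgfbi, a matrix protein named for its induction by TGF-beta, rose by 1.72 ± 0.27 on the log2 scale (adjusted p = 0.000634). Jun had 720.0, 744 and 1007 CPM in LPS and 2351, 2853 and 2577 CPM in PBS microglia (-1.66 ± 0.14, adjusted p = 6.19e-06), and Id3 fell by 1.42 ± 0.34 (adjusted p = 0.00891). In PAPERCLIP none of 4 tested was called.

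The other lists were mixed as well. Their counts stand beside 26.4% of all 10267 genes called in RNA-seq, 15.9% as higher and 10.4% as lower. Of 15 other Smads and regulators tested in RNA-seq, 5 fell and 1 rose: Pmepa1 had 170.4, 168 and 204 CPM in LPS and 383, 339.7 and 371 CPM in PBS microglia (-1.02 ± 0.10, adjusted p = 1.49e-05), Smad5 (-0.64 ± 0.13, adjusted p = 0.00394) and Smad1 (-0.49 ± 0.13, adjusted p = 0.0154), both BMP-branch Smads, were lower, and Tgif1 rose (0.75 ± 0.15, adjusted p = 0.00248). Of 9 other receptors 4 fell, among them Eng (-0.74 ± 0.11, adjusted p = 0.000377) and the activin type II receptors Acvr2a and Acvr2b, and 1 rose, the activin type I receptor Acvr1b (0.57 ± 0.14, adjusted p = 0.00888). Of 10 ligands and latency factors 3 rose (Furin, Gdf15 and Thbs1) and 2 fell (Ltbp4 and Itgav). In PAPERCLIP none was called of 10 regulators, 4 receptors and 3 ligands and latency factors tested.

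**Figure D5:**
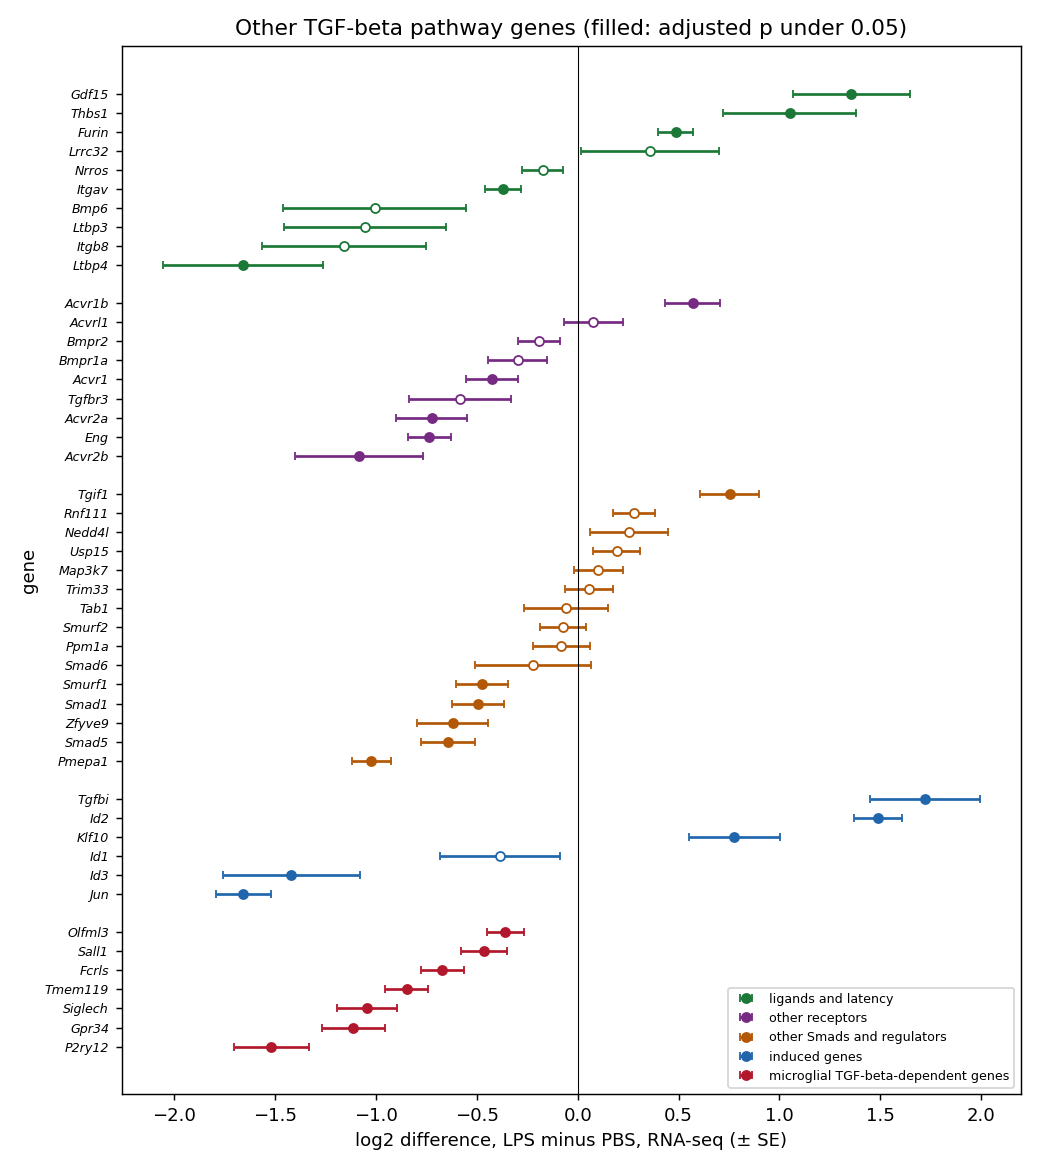
Log2 difference of LPS minus PBS in microglial RNA-seq for the other pathway genes that were tested, 1 induced gene left out, with bars of 1 SE, in 5 lists by colour; filled points passed an adjusted p of 0.05. All 7 microglial TGF-beta-dependent genes are filled and lie below 0, from -1.52 to -0.36, while the other 4 lists have filled points on both sides.

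In PBS microglia both assays can be set side by side as plain CPM. RNA-seq counts grow with transcript length and PAPERCLIP reads 3′ ends, so the ratio of the assays is no difference in level. Tgfb1 had the highest ratio, 35.7, with 351 ± 13.96 CPM in RNA-seq and 9.84 ± 8.52 CPM in PAPERCLIP (SD, n = 3 each). Tgfb2 had 22.7 ± 5.07 CPM in RNA-seq and no count in PAPERCLIP, so no ratio could be taken. For the 8 members other than the ligands that ratio ran from 0.623 for Smad2 to 3.35 for Tgfbr1. No test was made, since the assays differ in mice, cell isolation and library type.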

How the data were processed

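cTag-PAPERCLIP and RNA-seq libraries were taken as the gene counts the authors deposited, 24 libraries in all. Per the submitters' processing notes, adapters were removed with cutadapt, PAPERCLIP reads were aligned with Novoalign and RNA-seq reads with STAR, on mm10; versions, strand setting, use of the random barcode and assignment of reads to genes are not stated in any source used here. Genes that overlap a neighbour may therefore share reads with it. The labels' protocols give an anti-GFP pull-down for the tagged libraries and poly(A) selection for the microglial RNA-seq.

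Of 47069 Ensembl identifiers 46488 had a symbol; 691 older symbols were updated, and 23098 genes were shared by both assays. Each comparison was fitted over all genes that passed filterByExpr with edgeR 4.0.16 (quasi-likelihood, TMM scaling, Benjamini-Hochberg adjustment at 0.05) in R 4.3.3; the script was tested on simulated data. Cell types were fitted on the 8 untreated tagged libraries, PBS against untreated on the 8 Cx3cr1 libraries, and LPS against PBS on the 6 libraries of each assay. Members had to pass the filter to be tested: 9 in the cell type comparisons, 8 in tagged microglia and 10 in RNA-seq.

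Alternatives were RLE or plain total scaling, DESeq2 1.42.0, other filters, thinning to the shallowest library, a replicate block, a file-name prefix that separates replicate 3, and leaving out libraries. The members and lists were chosen with earlier results of these data known. All members are named; of other pathway genes, at most the 3 of smallest p per direction, list and comparison; 1 induced gene is counted but not reported here. The labels call the knockout libraries biological replicates; for the others, nothing used here says that replicates came from separate cultures or animals beyond the pooling given, so p-values measure the spread between these libraries. No pair of libraries agreed within sampling noise (chi-square per degree of freedom at least 2.1). Same-numbered LPS and PBS PAPERCLIP libraries deviated together (correlations 0.13, 0.24 and 0.188), so the block was taken as a pairing there. All other pairings were below 0, but deviations from a group mean sum to 0, which pushes them that way. The pairing was thus chosen from these same data, and the labels do not give it. Intervals and limits from 3 counts cover counting error only, and precision is lowest in the untreated Cx3cr1 and liver libraries.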

Additional observations from a re-analysis of the deposited data

Results flagged for a closer look

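Libraries outside every comparison also carried the pathway. In cortex of Ptbp2-KO embryos at E18.5, for which no control was analysed here, all 10 genes were detected by RNA-seq. The receptor Tgfbr1 averaged 186 ± 42.1 CPM, Tgfbr2 20.3 ± 2.84 CPM, and the ligands Tgfb1 1.01 ± 0.265 CPM and Tgfb2 14.6 ± 1.48 CPM (SD, n = 3, plain CPM). Smad2 averaged 81.2 ± 5.58 CPM, Smad3 29.8 ± 3.71 CPM, Smad4 109 ± 2.89 CPM and Smad7 13.5 ± 0.845 CPM. Ski averaged 82.7 ± 8.30 CPM and Skil 159 ± 0.819 CPM. Replicate 3 stood apart over all genes, with a chi-square per degree of freedom of 75.5 and 76.9 against replicates 1 and 2, beside 6.67 between those, and in sex transcripts, with 29047 counts of Xist and 11 of Ddx3y, beside 1412 and 168 of Xist and 2731 and 2768 of Ddx3y in replicates 1 and 2. Its Tgfbr1 level was 235 CPM, beside 160.4 and 163 CPM.

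The single liver PAPERCLIP library, with 115734 counts, had 4 members above the limit that a count of 0 allows. Ski stood at 121 CPM (14 counts, 95% Clopper-Pearson interval 66.1 to 203), Tgfbr2 at 77.8 CPM (9 counts, 35.6 to 148), Smad4 at 51.8 CPM (6 counts, 19.0 to 113) and Smad7 at 34.6 CPM (4 counts, 9.42 to 88.5). The other 6 members had 0 to 3 counts, with none for Tgfb1 or Tgfb2.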

How the results depend on the processing

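Depth limits these results: untreated Cx3cr1 libraries held 133456 and 154959 counts, and members near 5 CPM in the cortical libraries rest on a few counts. Over all alternatives 1068 of 1142 member values kept their side of the threshold, 60 lost a call and 14 gained one. The sign changed in 38, none of them called in either fit. Thinned to the shallowest library, 1 member was called in Gfap against neurons (Tgfbr1, adjusted p = 0.0167, while Skil was lost and Tgfb2 and Smad4 were not tested) and 2 in Camk2a against Gad2. PBS against untreated had 0 calls with plain totals and with a filter at 5 CPM. LPS against PBS in PAPERCLIP had 1 call with the replicate block, which also moved the calls over all genes to 423, against 201 without it, and in the interaction to 57, against 1. The exact sign-flip permutation test of the receptor ratio over pairs (p = 0.25) was chosen after seeing the data. Leaving out 1 library gave 6 to 6 calls for Cx3cr1 against the cortical lines, 3 to 5 for Gfap against neurons, 3 to 6 for Camk2a against Gad2, 6 to 7 for Cx3cr1 against Gfap, 0 to 2 for PBS against untreated, 0 to 0 for LPS in PAPERCLIP and 3 to 5 in RNA-seq, and 0 to 0 for the interaction; the cause was not tested. In RNA-seq, same-numbered libraries correlated at 0.113, 0.0996 and 0.191, and PBS replicate 1 with LPS replicate 2 at 0.104. The labels give same-numbered libraries only a shared number. Replicate 3 of both groups also had Ddx3y (281 counts in PBS, 154 in LPS) and 2 counts of Xist, unlike replicates 1 and 2. The block gave 4 calls in RNA-seq in place of 5 and no calls in the interaction.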
